A study of Bos taurus with 12 samples.

Results

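Epithelial cells of the ampulla, the wide upper stretch of the oviduct in which eggs are fertilized, were compared between the follicular phase (FP) and the luteal phase (LP) of the bovine estrous cycle. The comparison used 6 of the 12 arrays in the series, 3 from FP heifers and 3 from LP heifers, with 1 array per heifer. FP heifers had been given 25 mg of prostaglandin F2α (PGF2α), which makes the corpus luteum regress, in the evening of day 6 of the cycle, 36 h before they were killed. LP heifers received no PGF2α and were killed on day 11 or 12. All were normally cycling Angus heifers, and the cells were squeezed from sections of the oviduct on the side of the preovulatory follicle (FP) or of the corpus luteum (LP). Phase, the PGF2α injection and the day of the cycle differ together between the groups and cannot be told apart. The remaining 6 arrays held epithelial cells of the isthmus, the narrow lower stretch of the oviduct, from the same heifers, and were used for the shared estimate of spread and for a test of whether a change differed between the segments.

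The array (Bovine Gene 1.0 ST) reads the whole length of a transcript with many probes, which are summarized as 1 log2 signal per probeset. Of 26773 probesets, 18457 carry a single gene symbol, and these stand for 18010 genes. A difference is FP minus LP on the log2 scale, so that 1.00 is a 2-fold increase in the FP. A differentially expressed gene (DEG) had an adjusted p under 0.05 over all probesets and a fold change of at least 1.5 in limma, a linear model that shares information on the spread between genes. A DEG is said to have held when it was called with the same sign after each of the 6 heifers was left out in turn, and when the 3 FP and 3 LP values did not overlap. The 6 ampulla arrays came from separate heifers, so the phases were compared between animals. The errors came from a fit of all 12 arrays, with the ampulla and isthmus of each heifer taken as separate samples. They therefore mix the spread of both segments.

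The epithelium of the oviduct consists of ciliated cells, which move eggs, sperm and fluid, and secretory cells, which release glycoproteins and ions into the lumen. Estradiol from the preovulatory follicle dominates the FP and progesterone from the corpus luteum dominates the LP. Secretory cells depend on the endoplasmic reticulum (ER), where proteins are folded and receive N-linked sugars, and on coat protein vesicles that carry them to the Golgi apparatus.

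Summed over 16 markers of oviduct epithelium, the log2 of the mean linear signal was 11.31, 11.29 and 11.30 in the FP heifers, against 11.04, 11.16 and 11.20 in the LP heifers. Of these markers KRT8 and MUC1 rose and the other 14 were not called, and 4 rose without FP heifer 3. Only 6 of the 16 had a difference above 0 (median -0.15, all genes -0.02), so most leaned lower in the FP. Without FP heifer 2, LP heifer 1 or LP heifer 3, 1 marker was called lower. The oviduct glycoprotein OVGP1 had signals of 13.43, 13.29 and 13.40 in the FP, against 12.13, 13.06 and 13.20 in the LP (difference 0.57, SE 0.45, adjusted p = 0.452). Correlations between arrays were 0.989 to 0.990 within the FP, 0.986 to 0.988 within the LP and 0.974 to 0.978 between the phases. Markers of leukocytes differed between the groups: the summed level of 33 T and NK cell markers was 6.51, 6.60 and 6.29 in the FP, against 7.25, 7.04 and 8.48 in the LP, and that of 25 macrophage and dendritic cell markers was 6.90, 7.21 and 6.68 in the FP, against 7.78, 7.75 and 8.25 in the LP. LP heifer 3 stood apart with the highest level of both lists. The level of 15 B and plasma cell markers was 6.39 to 6.42 in the FP and 6.75 to 7.33 in the LP. That of 20 fibroblast and stroma markers went the other way, with 9.08 to 9.25 in the FP and 8.70 to 8.98 in the LP, although none of these 20 was called. In bulk samples fewer cells of a type and less RNA per cell cannot be told apart.

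**Figure D1:**
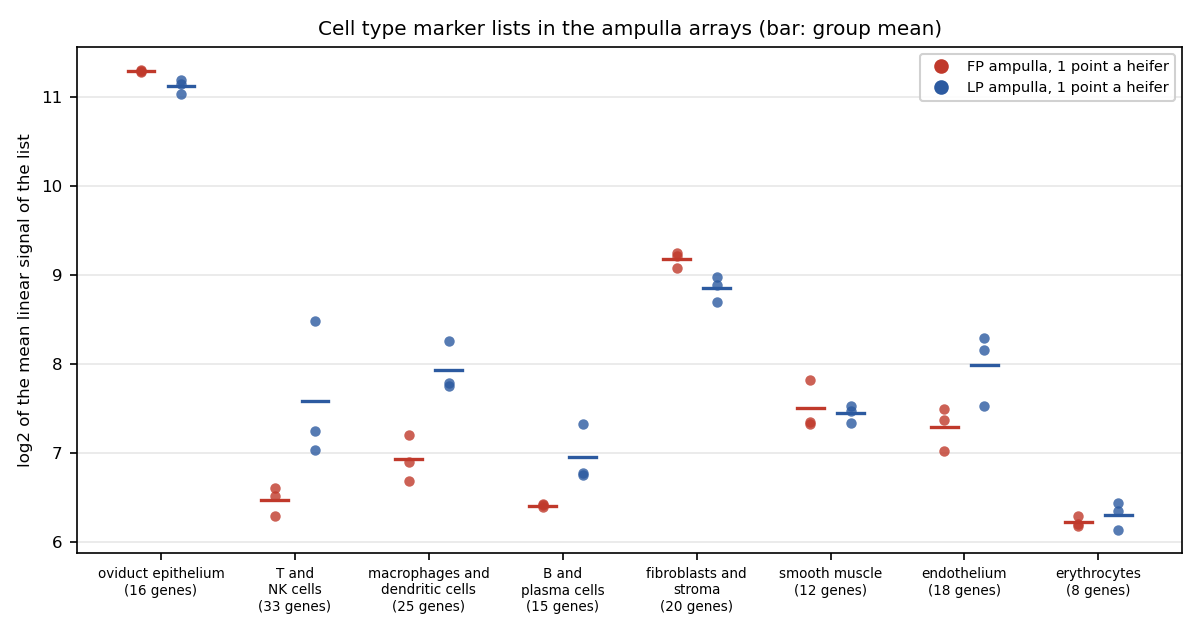
Summed levels of 8 marker lists in the 6 ampulla arrays (y axis, log2 of the mean linear signal over the measured genes of each list; 1 point a heifer, bars for group means, FP left of LP). The widest separations are in the T and NK cell list (FP 6.29 to 6.60, LP 7.04 to 8.48) and the macrophage and dendritic cell list (FP 6.68 to 7.21, LP 7.75 to 8.25).

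Among the 18010 genes, 990 were higher and 656 were lower in the FP, which is 5.5% and 3.64% of those tested (9.14% in all). Over all 26773 probesets 7.82% were called, 4.44% higher and 3.38% lower. The median over all genes was -0.02. Of all 18010 genes, called or not, 19.7% had every FP value above every LP value and 20.4% had every FP value below. Lack of overlap alone is therefore common here. A fold of at least 4 was reached by 49 increases and 13 decreases, and a fold of at least 8 by 10 increases and 3 decreases. Of the increases 626 held, or 63.2%, and of the decreases 263 held, or 40.1%, which makes 3.48% and 1.46% of all genes tested. The most calls were lost without FP heifer 2, which removed 261 of the increases and 266 of the decreases. Among the lower genes the SD of the LP heifers exceeded that of the FP heifers in 404 of 656, with median SDs of 0.18 in the FP and 0.22 in the LP.

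**Figure D2:**
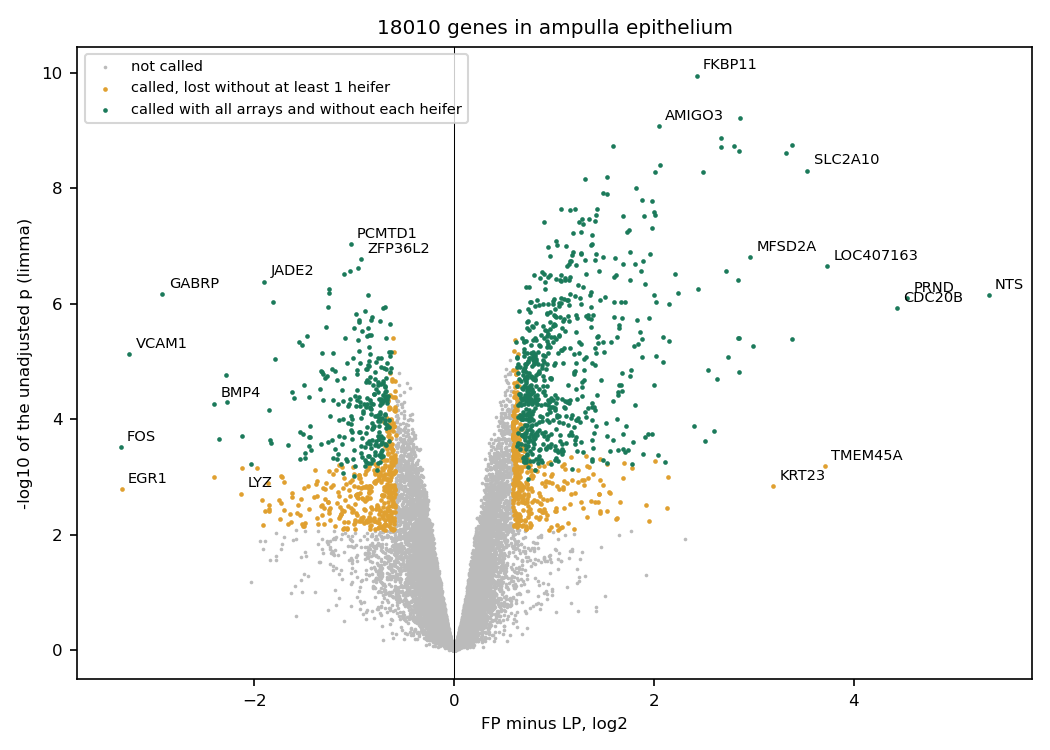
Difference between the phases (x axis, FP minus LP, log2) against the -log10 of the unadjusted limma p (y axis) for 18010 genes in the ampulla, 1 point a gene. Green points are the 626 increases and 263 decreases that held without each heifer, orange points are called genes that did not hold, and the largest increase is NTS at 5.35.

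Among the larger increases were genes for proteins of the ER lumen, phospholipases, a protease inhibitor and a growth factor carrier. CRELD2, an ER protein induced when folding is stressed, had signals of 11.67, 11.55 and 12.10 in the FP, against 8.09, 8.62 and 8.44 in the LP, a 10.5-fold rise (log2 3.39, SE 0.18, adjusted p = 5.62e-06). The lowest FP heifer lay 2.93 above the highest LP heifer. PLA2G4D, a cytosolic phospholipase A2 that frees fatty acids from membranes, had 9.60, 9.45 and 9.95 in the FP, against 6.22, 6.95 and 7.28 in the LP, a 7.19-fold rise (SE 0.26 on the log2 scale, adjusted p = 9.82e-05). Its relative PLA2G4F rose 3.85-fold (log2 1.95, SE 0.35, adjusted p = 0.00431), and here LP heifer 3 at 8.54 lay nearer to the FP heifers at 9.54 to 9.73 than did LP heifers 1 and 2 at 7.03 and 7.44. SERPINE3, a member of the serine protease inhibitor family, had 9.84, 11.08 and 10.24 in the FP, against 8.02, 7.68 and 6.90 in the LP, a 7.23-fold rise (SE 0.33, adjusted p = 0.000401). FGFBP1, a secreted carrier that releases fibroblast growth factors from the matrix, rose 4.44-fold (log2 2.15, SE 0.22, adjusted p = 0.000174), with 8.62 to 8.97 in the FP and 6.22 to 7.03 in the LP.

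The largest decrease that held was that of FOS, an immediate early transcription factor, with 6.06, 6.32 and 6.32 in the FP, against 10.55, 7.82 and 10.34 in the LP (log2 -3.34, SE 0.63, adjusted p = 0.006). EGR1, another immediate early factor, differed by -3.33 but did not hold, since LP heifer 3 and each FP heifer were needed for its call. In both genes LP heifer 2 was the lowest of the LP heifers. The GABA receptor subunit GABRP fell by 2.92, the transcription factor ZBTB16 by 2.35 and the kinase PDK4, which restrains pyruvate dehydrogenase, by 2.12, and these held. VCAM1, an adhesion molecule that binds leukocytes, was near the floor of the arrays in the FP, with 5.65, 5.88 and 5.81, against 8.39, 8.85 and 9.86 in the LP (log2 -3.25, SE 0.40, adjusted p = 0.000599). The lower quartile of signals on these arrays was 5.68 to 5.79, which makes the size of the fall uncertain, and the highest LP value was that of heifer 3. The summed level of 18 endothelial markers was 7.03, 7.49 and 7.37 in the FP, against 8.29, 8.16 and 7.52 in the LP, and its part in the fall of VCAM1 was not tested. BMP4, a ligand of the bone morphogenetic protein (BMP) family, had 6.97, 7.15 and 6.76 in the FP, against 9.61, 9.72 and 8.76 in the LP, a fall of 5.29-fold (SE 0.37 on the log2 scale, adjusted p = 0.00201). CHRDL1, which binds and blocks BMP ligands, had 6.53, 7.01 and 7.44 in the FP, against 9.45, 9.06 and 9.32 in the LP (log2 -2.28, SE 0.31, adjusted p = 0.00102). Ligand and antagonist were thus both lower in the FP, with more than 1.6 between the nearest heifers of the groups (1.61 and 1.62). VEGFD, a growth factor of lymphatic vessels, had 6.73, 7.24 and 6.15 in the FP, against 8.59, 9.02 and 9.33 in the LP (log2 -2.27, SE 0.35, adjusted p = 0.00192). JADE2, a chromatin protein with PHD fingers, had 7.48, 7.91 and 7.63 in the FP, against 9.50, 9.84 and 9.39 in the LP (log2 -1.90, SE 0.17, adjusted p = 0.000101). RUNDC3B fell by 1.85 (SE 0.29, adjusted p = 0.00233), with an FP mean close to the lower quartile of signals.

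CLEC2D, the ligand of a lymphocyte receptor, and EVI2B, a membrane protein of blood cells, were also among the largest decreases. CLEC2D differed by -2.04 (SE 0.42, adjusted p = 0.00887) and EVI2B by -1.85 (SE 0.34, adjusted p = 0.00496). In both, LP heifer 3 was the highest of all, with 9.08 for CLEC2D against 7.89 and 7.65 in the other LP heifers, and 8.57 for EVI2B against 7.42 and 7.55. This heifer also had the highest summed T and NK cell markers (8.48), and the part of those cells in the decreases was not tested.

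**Figure D3:**
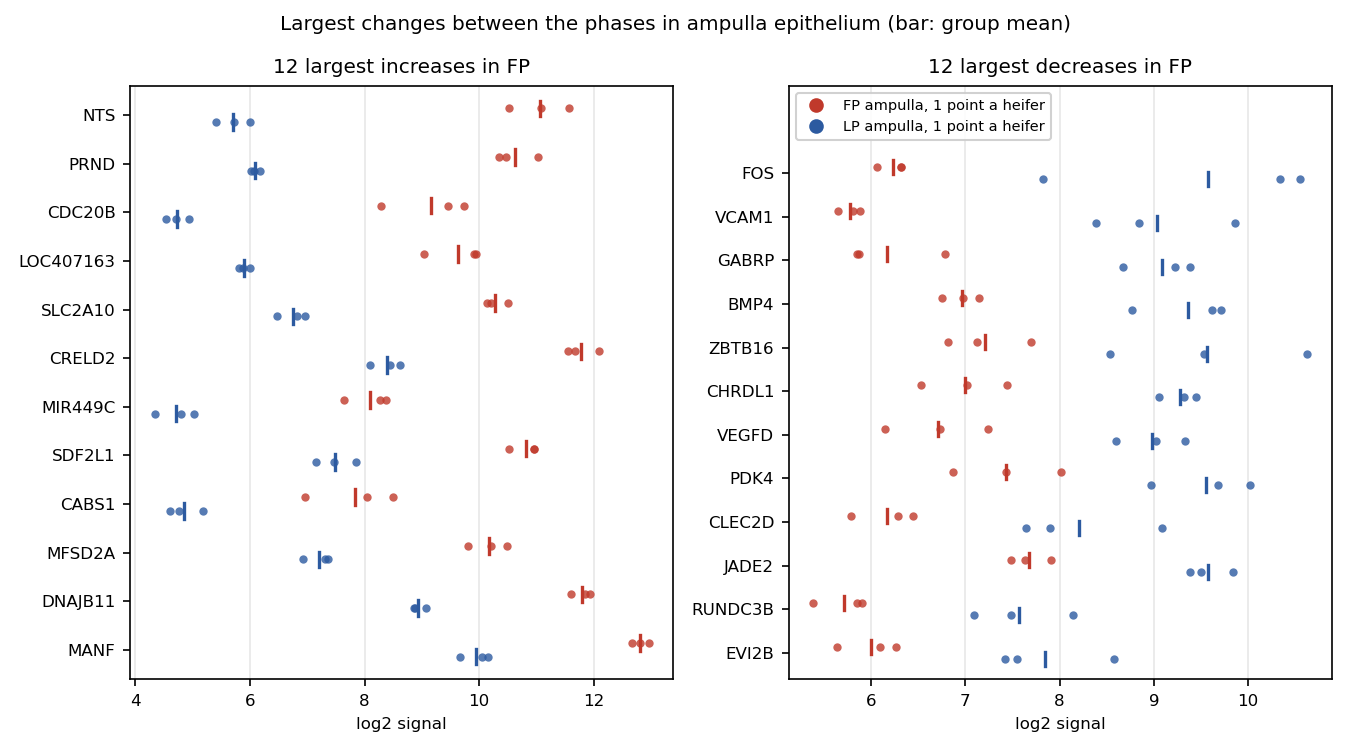
Log2 signals (x axis) of the 12 largest increases and the 12 largest decreases among genes whose call held, with 1 point a heifer, bars for group means, and FP above LP in each row. The rule admits only genes whose FP and LP points do not overlap, and these lie at 11.55 to 12.10 against 8.09 to 8.62 for CRELD2 and at 6.76 to 7.15 against 8.76 to 9.72 for BMP4.

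Ranking by the moderated t (the difference over its error) picked out a partly different set. The error mixes the spread of both segments and the rank grows with the difference, so it does not measure steadiness across ampulla heifers alone. Of the 10 increases with the largest moderated t, FKBP11, DNAJB11, PDIA4, CRELD2, HYOU1, MANF and SDF2L1 act in the ER. INSIG1 and TMEM97 belong to sterol control, and AMIGO3 is an adhesion protein with leucine-rich repeats. FKBP11, a prolyl isomerase of the secretory pathway, had 10.39, 10.41 and 10.52 in the FP, against 8.00, 8.00 and 8.03 in the LP, and the largest moderated t of all genes (log2 2.43, SE 0.10, adjusted p = 3.01e-06). AMIGO3 had 9.95, 9.69 and 9.75 in the FP, against 7.77, 7.72 and 7.76 in the LP (log2 2.05, SE 0.10, adjusted p = 5.56e-06). TMEM97, the sigma-2 receptor, rose by 1.59 (SE 0.08, adjusted p = 5.62e-06), with 11.23 to 11.37 in the FP and 9.57 to 9.78 in the LP. Each kept an adjusted p of at most 0.000303 after any 1 heifer was left out.

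The 10 decreases with the most extreme moderated t ranged in size. GABRP (-2.92) and JADE2 (-1.90) were also among the largest, and the other 8 lay between -0.86 and -1.25. The ampulla values of GABRP were not tight, with SDs of 0.54 in the FP and 0.37 in the LP. ZFP36L2, which marks messenger RNAs for decay, had 9.24, 9.25 and 9.25 in the FP, against 10.20, 10.11 and 10.23 in the LP (log2 -0.93, SE 0.08, adjusted p = 6.64e-05). PCMTD1 averaged 10.06 ± 0.05 (SD, n = 3) in FP heifers, against 11.10 ± 0.05 in LP heifers (log2 -1.03, SE 0.08, adjusted p = 4.88e-05). These are differences of about 1 on the log2 scale with very little spread between the heifers of a phase. The Polycomb proteins CBX7 and EZH1, which keep genes silent through chromatin, were lower too, CBX7 with a fall of 1.10 (SE 0.10, adjusted p = 9.16e-05) and EZH1 with one of 0.86 (SE 0.08, adjusted p = 0.000147). The forkhead factor FOXO4 fell by 1.25 (SE 0.12, adjusted p = 0.000125), with 7.41 to 7.70 in the FP and 8.66 to 8.93 in the LP. ST3GAL6, which adds sialic acid to glycans, fell by 1.25 (SE 0.12, adjusted p = 0.000143), and TCP11L2 fell by 1.05 (SE 0.09, adjusted p = 8.64e-05). RORA was the remaining gene of the 10.

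Several large differences did not hold across heifers. TMEM45A, a transmembrane protein, had 10.63, 9.74 and 11.14 in the FP, against 8.79, 5.10 and 6.48 in the LP, and its rise of 3.71 (SE 0.78, adjusted p = 0.00943) missed the threshold without FP heifer 3 (adjusted p = 0.0501). UNC13C, which primes vesicles for release, had 5.54, 7.27 and 8.65 in the FP, against 5.30, 4.95 and 4.81 in the LP (log2 2.13, SE 0.57, adjusted p = 0.0281), and was called in only 1 of the 6 fits without a heifer. APOA1, a lipoprotein component, had 7.29, 10.21 and 9.19 in the FP, against 6.85, 7.08 and 6.91 in the LP (log2 1.95, SE 0.56, adjusted p = 0.039), and was likewise called in 1 of the 6 fits. For both, 1 FP heifer lay close to the LP heifers and the others lay well above them. The decreases of the leukocyte genes GPR174, LYZ, KLRK1 and CD84 (-1.92 to -2.40) and of the calpain CAPN6 (-1.97) did not hold either.

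KRT23, a keratin, failed for another reason. Its ampulla values were tight, at 11.72, 11.56 and 11.64 in the FP, against 8.57, 8.52 and 8.24 in the LP (log2 3.19), but its SE of 0.75 came from the spread shared with the isthmus, where the LP heifers had 8.46, 4.41 and 5.97. With all arrays the adjusted p was 0.0157 and reached 0.0696 without FP heifer 2, whereas with the 6 ampulla arrays alone it was 0.000565.

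A pair of gene neighbourhoods, noticed after their values were seen, held several of these genes. In the RefSeq order of ARS-UCD2.0, MIR449C, a miRNA gene, CDC20B, MCIDAS and CCNO lie side by side with only a long non-coding RNA gene among them, and in other vertebrates genes of this locus drive the making of many centrioles in cells that grow cilia. CDC20B had 8.28, 9.74 and 9.46 in the FP, against 4.94, 4.52 and 4.71 in the LP, a 21.6-fold difference whose size is uncertain because the LP signals were under the lower quartile. MIR449C, on a probeset within the same locus, had 7.64, 8.27 and 8.38 in the FP, against 5.02, 4.34 and 4.79 in the LP (log2 3.38, SE 0.39, adjusted p = 0.000407). CCNO, an atypical cyclin of centriole amplification, had 7.33, 8.39 and 7.95 in the FP, against 6.48, 6.61 and 6.44 in the LP (log2 1.38, SE 0.23, adjusted p = 0.00295), and MCIDAS, which starts the multiciliated program, had 7.73, 8.18 and 8.24 in the FP, against 7.31, 6.86 and 7.15 in the LP (log2 0.94, SE 0.17, adjusted p = 0.00454). All held, and FP heifer 1 was the lowest FP heifer for each. The next genes by start position differed little, with -0.02 for MIR449B, 0.04 for MIR449A and 0.07 for GPX8 on one side. DHX29 on the other side differed by 0.10. None of these genes was called (limma adjusted p of 0.514 to 0.961). The order of starts does not show whether the miRNA genes lie inside CDC20B, so it sets no edge of the change. The signals of MIR449A were dim in both phases, at 4.77 to 5.16 in the FP and 4.61 to 5.27 in the LP.

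Over the whole list of 29 genes of multiciliated cell formation, 7 rose, against 5.5% of all genes, and 3 of them held (CDC20B, CCNO and MCIDAS). The others were STIL (1.46), PLK4 (1.13), E2F4 (0.66) and CDK2 (0.62), which also serve the ordinary cell cycle, and without FP heifer 2 only 4 of the list were called. Factors that act further along in ciliated cells were not called, with differences of -0.02 for FOXJ1 (adjusted p = 0.899) and -0.00 for MYB (adjusted p = 0.992). Structural genes of the cilium went the other way: of 64 genes of the axoneme and of transport within it, 49 had a difference below 0 (median -0.21, all genes -0.02) and 5 were called lower (3.64% of all genes). The dynein DNAH9 had 10.63, 10.69 and 10.94 in the FP, against 11.49, 11.42 and 11.30 in the LP (log2 -0.65, SE 0.11, adjusted p = 0.00354), and CFAP43 fell by 0.72 (SE 0.14, adjusted p = 0.00632). Only these 2 held, and the count of lower members moved with the heifer left out, being 3 without FP heifer 1 or FP heifer 2, 12 without FP heifer 3, 2 without LP heifer 1 and 8 without LP heifer 3. With each array centred on its median it was 3.

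The other stretch held miRNA genes of the miR-29 family, which target transcripts of the extracellular matrix in mammals. MIR29B-2 had 6.42, 6.20 and 6.41 in the FP, against 8.16, 8.12 and 7.06 in the LP (log2 -1.44, SE 0.26, adjusted p = 0.00464). MIR29D had 5.37, 5.35 and 5.68 in the FP, against 7.41, 7.49 and 6.48 in the LP (log2 -1.66, SE 0.31, adjusted p = 0.0056), and MIR29C fell by 1.83 (SE 0.34, adjusted p = 0.00543). For all 3 genes, which held, LP heifer 3 was the lowest LP heifer. The FP signals of MIR29D lay at or below the lower quartile. Between MIR29C and MIR29D lie CD46, LOC518224 and MIR29E, with differences of -0.13, -0.14 and -0.23 that were not called. MIR29E was among the dimmest signals of the arrays. Such probesets may read the primary transcript rather than the mature miRNA, which were not separated here.

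**Figure D4:**
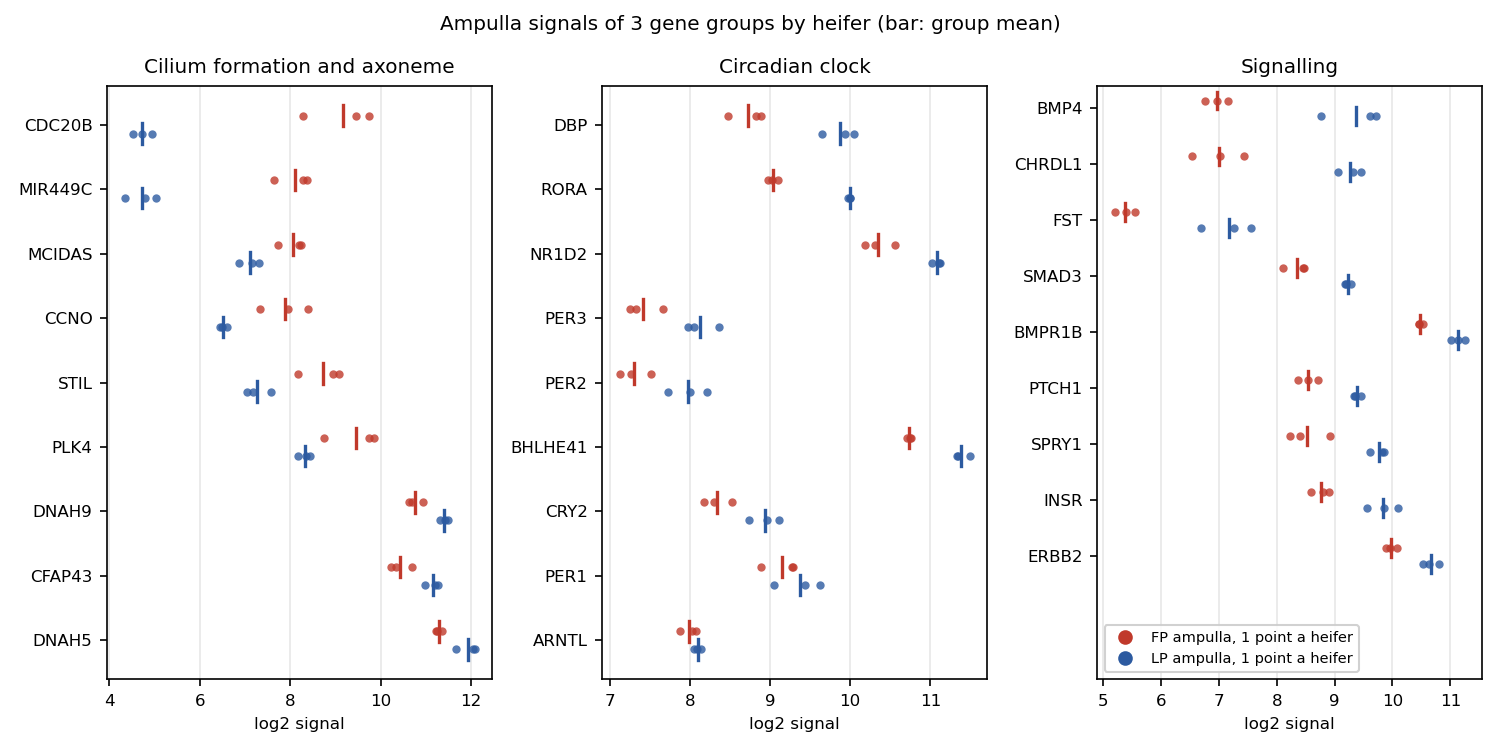
Log2 signals (x axis) in the ampulla of 9 genes of cilium formation and the axoneme (left), 9 circadian clock genes (middle) and 9 signalling genes (right), with 1 point a heifer, bars for group means and FP above LP in each row. CDC20B is at 8.28 to 9.74 in the FP and 4.52 to 4.94 in the LP, whereas DNAH9 is at 10.63 to 10.94 in the FP and 11.30 to 11.49 in the LP, and BMP4 is at 6.76 to 7.15 in the FP and 8.76 to 9.72 in the LP.

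Genes that supply the secretory pathway beyond its chaperones rose widely. Of 41 genes that build or attach the N-glycan precursor, 22 rose and 19 held (median 0.59), of 24 genes of the translocon and signal peptidase, which pass new proteins into the ER, 9 rose and all 9 held (median 0.51), and of 54 genes of COPI and COPII vesicles, 18 rose and 14 held (median 0.45). The shares over all genes were 5.5% rising and 3.48% held. GMPPB, which makes the GDP-mannose used for glycans, averaged 10.98 ± 0.13 (SD, n = 3) in FP heifers, against 8.97 ± 0.05 in LP heifers (log2 2.01, SE 0.14, adjusted p = 2.47e-05). SEC11C, a catalytic subunit of the signal peptidase, had 11.53, 11.24 and 11.66 in the FP, against 9.64, 9.57 and 10.09 in the LP (log2 1.71, SE 0.17, adjusted p = 0.000168). The cargo receptors TMED3 and TMED9 both rose by 1.27 (adjusted p = 0.000174 and 3.56e-05) and the COPII coat protein SEC24D by 1.16 (SE 0.11, adjusted p = 0.000143). ALG13 was the exception among N-glycan genes, with 8.46, 8.22 and 8.59 in the FP, against 10.17, 9.54 and 9.54 in the LP (log2 -1.33, SE 0.18, adjusted p = 0.000939), although it belongs to the enzyme that adds the second sugar of the precursor.

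For later steps of glycan building in the Golgi apparatus, the counts lay near the shares of all genes. Of 52 glycosyltransferases of O-glycans and terminal sugars, 3 rose and 2 fell (median 0.13). These are 5.77% and 3.85%, beside 5.5% and 3.64% of all genes. GALNT1, which starts O-glycans, rose by 0.85 (SE 0.15, adjusted p = 0.00391), and ST3GAL6 fell as given above. Leaving out FP heifer 1, 2 or 3 or LP heifer 2 left 1 lower member, and restricting the test to probesets above the lower quartile gave 6 higher and 1 lower. Centring each array on its median gave 5 higher.

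In the respiratory chain, the mitochondrial ribosome, mitochondrial import and the tricarboxylic acid cycle, nearly all members had a difference above 0. Members that rose made up 20.6% of complex I, 25.7% of complexes II to V and 16% of the mitochondrial ribosome. They made up 20% of mitochondrial import and 23.8% of the tricarboxylic acid cycle, beside 5.5% of all genes. All 34 measured genes of complex I of the respiratory chain had a difference above 0 (median 0.50, all genes -0.02), and 7 of them rose, 5 of which held. Without LP heifer 3, 11 rose. Of 35 genes of complexes II to V, 34 had a difference above 0 (median 0.40), 9 rose and 6 held. NDUFA11, an accessory subunit of complex I, averaged 9.81 ± 0.27 (SD, n = 3) in FP heifers, against 8.54 ± 0.22 in LP heifers (log2 1.28, SE 0.18, adjusted p = 0.00119). ATP5MC1, part of the rotor of the ATP synthase, had 11.46, 11.54 and 11.20 in the FP, against 9.92, 10.13 and 10.29 in the LP (log2 1.29, SE 0.12, adjusted p = 0.00012). The mitochondrial ribosome behaved alike, with 69 of 75 genes above 0 (median 0.34), 12 that rose and 7 that held, and without FP heifer 2 it had 7 that rose. Of 30 genes of mitochondrial protein import, 6 rose and 2 held, and 3 rose without FP heifer 2 or without LP heifer 1. In the tricarboxylic acid cycle 5 of 21 rose and all 5 held, among them malate dehydrogenase MDH1 (1.14, SE 0.11, adjusted p = 0.000164) and citrate synthase CS (0.92, SE 0.12, adjusted p = 0.000887).

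Other lists of energy metabolism were less uniform. Of 28 genes of pyruvate dehydrogenase control and fatty acid oxidation 17 had a difference above 0, PPARD rose (0.61) and PDK4 fell and held, as given above. Each direction was 3.57% of the list, beside 5.5% rising and 3.64% falling among all genes. The 1 increase was lost without FP heifer 1 or LP heifer 1, and it was 2 without LP heifer 2 or with each array centred on its median. In glycolysis 14 of 20 genes had a difference above 0, 6 rose (30%, beside 5.5% of all genes) and 3 held. Hexokinase HK2, the entry step, had 8.51, 8.33 and 8.25 in the FP, against 6.87, 7.08 and 7.45 in the LP (log2 1.23, SE 0.20, adjusted p = 0.00298), and the aldolase ALDOC rose by 1.22 (SE 0.18, adjusted p = 0.00147). PFKFB3, which sets the level of an activator of glycolysis, was called lower at -0.89 (SE 0.23, adjusted p = 0.023), but not after FP heifer 1, LP heifer 2 or LP heifer 3 was left out.

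Of 26 genes of fatty acid synthesis and elongation 11 rose (42.3%, beside 5.5% of all genes) and 9 held (median 0.58). Fatty acid synthase FASN had 11.03, 11.02 and 10.98 in the FP, against 9.07, 9.05 and 8.98 in the LP (log2 1.98, SE 0.13, adjusted p = 1.92e-05), so that the heifers of a phase differed by less than 0.1. The desaturases FADS2, SCD and FADS1 rose by 1.25, 1.07 and 0.93, with adjusted p-values of 0.000595, 9.2e-05 and 0.000223. Among 32 genes of phospholipid synthesis 3 rose and held, namely PEMT (1.49), which makes phosphatidylcholine by methylation, LPCAT3 (1.31), which places polyunsaturated chains, and PCYT2 (1.31), which makes phosphatidylethanolamine. That count, 9.38% beside 5.5% of all genes, was 5 without FP heifer 1 and 6 with each array centred on its median.

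Of 19 genes of serine, glycine and one-carbon metabolism 7 rose and 5 held (12 above 0, median 0.42). ALDH1L2, a mitochondrial folate enzyme, had 8.24, 6.43 and 8.14 in the FP, against 5.19, 5.07 and 5.03 in the LP (log2 2.51, SE 0.46, adjusted p = 0.0051), with dim LP signals, all under the lower quartile, and FP heifer 2 between the groups. PSAT1, an enzyme of serine synthesis, had 11.30, 10.83 and 11.07 in the FP, against 9.02, 9.05 and 9.69 in the LP (log2 1.81, SE 0.28, adjusted p = 0.00206). Amino acid transporters were mixed, with 13 of 35 above 0 (median -0.11, all genes -0.02), 5 that rose and held, and 3 that fell, of which SLC1A1 held and 1 was left without any 1 of the FP heifers. SLC7A5, a carrier of large neutral amino acids, had 9.36, 8.95 and 9.31 in the FP, against 7.41, 7.22 and 7.35 in the LP (log2 1.88, SE 0.12, adjusted p = 1.92e-05), whereas the glutamate carrier SLC1A1 fell by 1.00 (SE 0.22, adjusted p = 0.012). Of 20 cytosolic aminoacyl tRNA synthetases and their scaffold proteins, which charge tRNAs for translation, 10 rose and 9 held (median 0.55), led by GARS1 at 1.08 (SE 0.13, adjusted p = 0.000548). The stress factors ATF4 and DDIT3, which induce genes of this kind, rose as well. ATF4 rose by 0.79 (SE 0.14, adjusted p = 0.00463) and DDIT3 by 1.03 (SE 0.15, adjusted p = 0.00183). They were 2 of the 5 genes that rose in a list of 18 genes of the ATF4 stress response. Their part in the increases above was not tested. Of 26 genes of purine and pyrimidine synthesis 9 rose (34.6%, beside 5.5% of all genes) and 5 held. The shares that rose were 36.8% in serine, glycine and one-carbon metabolism, 14.3% in amino acid transporters and 50% in tRNA synthetases. In the list of 18 the share was 27.8%. Of the transporters 8.57% fell, beside 3.64% of all genes.

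In ribosome biogenesis 37 of 38 genes had a difference above 0 (median 0.40), 10 rose, 3 held, and 3 rose without FP heifer 2. Of 37 cytosolic ribosomal proteins 3 rose and 2 held (median 0.25). Of 37 proteasome genes 36 had a difference above 0 (median 0.41) and 5 rose, a count that was 8 without FP heifer 3, without LP heifer 3 or with each array centred on its median. Lysosome and autophagy genes were mixed (median -0.03), with 2 of 40 higher (5%) and 4 lower (10%), beside 5.5% and 3.64% of all genes. The higher count was 1 without FP heifer 1 or 3 or LP heifer 1 or 3. In the other lists here 26.3% (ribosome biogenesis), 8.11% (ribosomal proteins) and 13.5% (proteasome) rose.

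Antioxidant genes rose in part, with 7 of 37 higher (18.9%, beside 5.5% of all genes) and 5 of those held. Glutathione reductase GSR had 9.43, 9.70 and 9.40 in the FP, against 8.05, 8.14 and 8.20 in the LP (log2 1.38, SE 0.10, adjusted p = 3.71e-05), and GPX4, which protects membrane lipids from oxidation, rose by 1.05 (SE 0.11, adjusted p = 0.000174). Heme oxygenase HMOX1 fell instead, with 7.54, 7.60 and 7.37 in the FP, against 8.52, 8.49 and 8.36 in the LP (log2 -0.95, SE 0.14, adjusted p = 0.00177). HMOX1 and TXNIP (-0.62) were the lower members (5.41%, beside 3.64% of all genes). Of them 1 was left without FP heifer 3, without LP heifer 1 or with each array centred on its median.

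**Figure D5:**
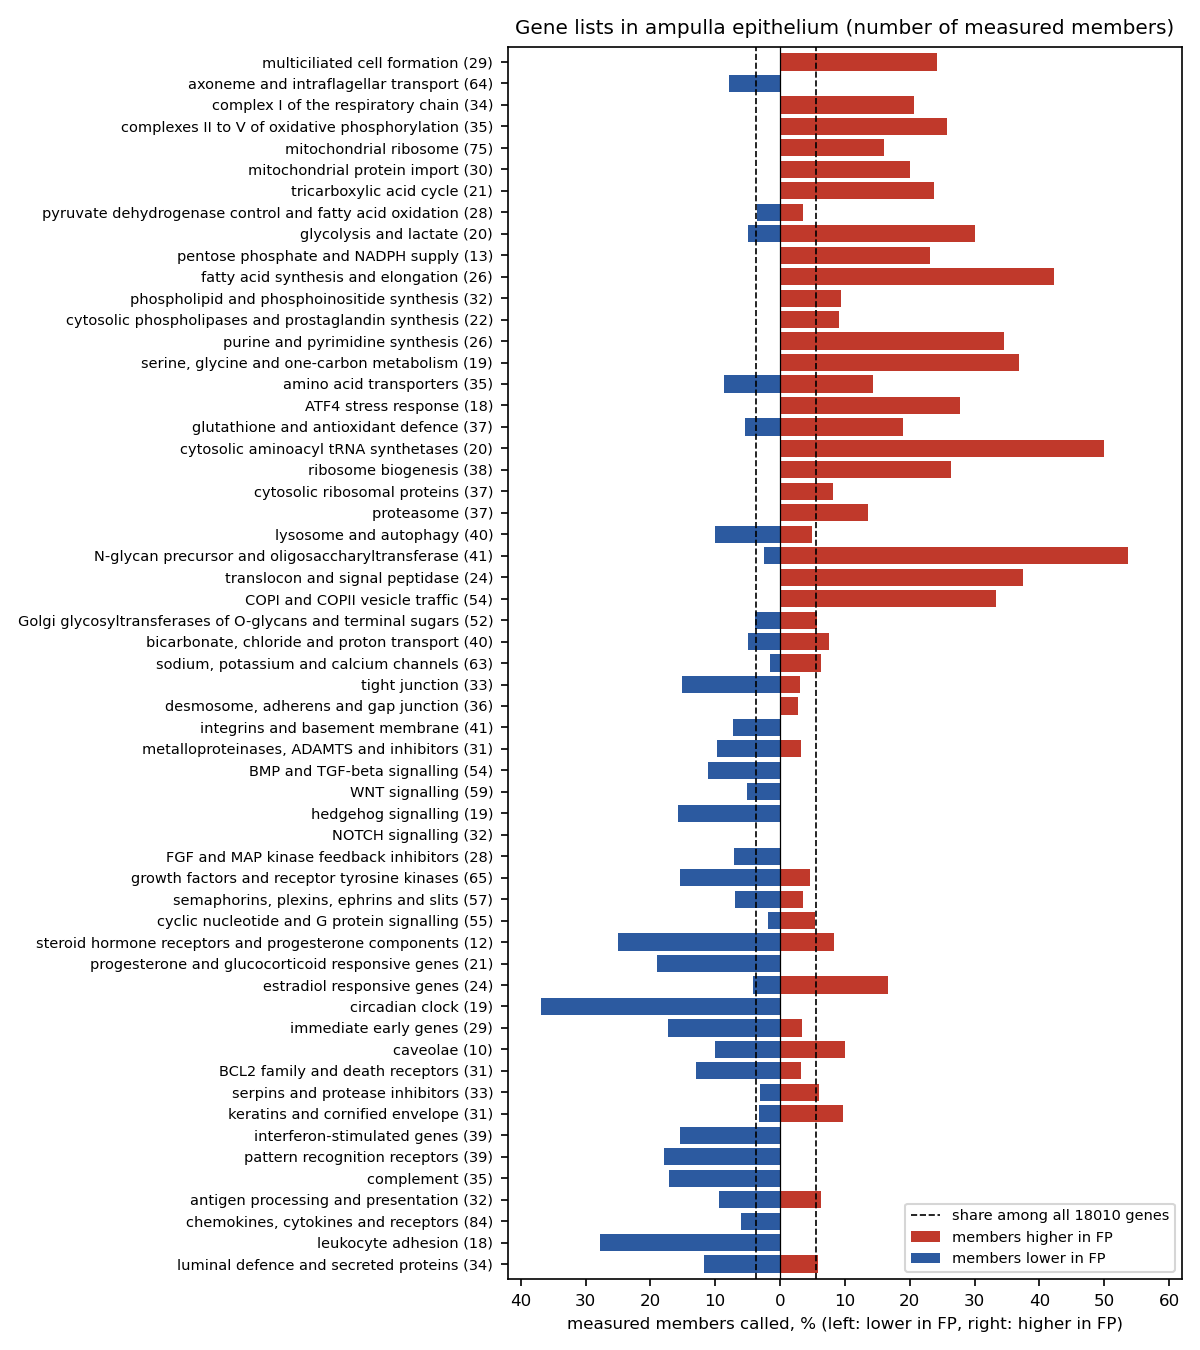
Share of the measured members of each gene list that was called higher in the FP (red, to the right) or lower in the FP (blue, to the left), in % (x axis), with the number of measured members in parentheses (y axis). Dashed lines mark the shares among all 18010 genes (5.5% higher, 3.64% lower), and the N-glycan list has 22 of 41 members higher while the circadian clock list has 7 of 19 lower.

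Several signalling lists had more lower than higher members. In BMP and TGF-beta signalling 6 of 54 genes fell (11.1%, beside 3.64% of all genes) and 5 held, with 15 of 54 above 0 (median -0.20). Beside BMP4 and CHRDL1 these were the activin-binding protein follistatin FST, with 5.39, 5.20 and 5.55 in the FP, against 7.56, 7.26 and 6.69 in the LP (log2 -1.79, SE 0.23, adjusted p = 0.000682), the transducer SMAD3 (-0.88, SE 0.12, adjusted p = 0.000887) and the receptor BMPR1B (-0.65, SE 0.08, adjusted p = 0.000587). All FP signals of FST were under the lower quartile, and the size of its fall is uncertain. Of 19 hedgehog genes 3 fell, or 15.8%. These were the receptor PTCH1 (-0.84, SE 0.10, adjusted p = 0.000599), which is itself induced by the pathway, SUFU (-0.66) and SMO (-0.61). PTCH1 alone held. Of 28 feedback inhibitors of FGF and MAP kinase signalling SPRY1 fell by 1.24 (SE 0.20, adjusted p = 0.0027) and DUSP10 by 0.59. These 2 are 7.14% of the list, beside 3.64% of all genes, and SPRY1 alone held. Whether so small a count exceeds the share of all genes was not tested. The count of lower inhibitors was 1 without FP heifer 1 or 3 or LP heifer 2, 4 without LP heifer 3, 4 among probesets above the lower quartile and 1 with each array centred on its median. Of 59 WNT genes 3 fell, a share of 5.08% beside 3.64% of all genes, among them the inhibitor NKD1 (-0.79, SE 0.15, adjusted p = 0.00573), and 1 did so without FP heifer 1 or 3.

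Among 65 growth factors and receptor tyrosine kinases 10 fell and 3 rose (15.4% and 4.62%, beside 3.64% and 5.5% of all genes). The insulin receptor INSR had 8.58, 8.81 and 8.90 in the FP, against 10.09, 9.86 and 9.56 in the LP (log2 -1.07, SE 0.14, adjusted p = 0.000752). ERBB2 and BTC, a receptor and a ligand of the EGF family, each fell by 0.68 (adjusted p = 0.00175 and 0.000886). VEGFD, INSR, ERBB2 and BTC held, while EGFR (-0.60), ERBB4 (-0.75) and MET (-1.12) were called but did not. Without LP heifer 3 the lower count was 16, and FGFBP1 was the 1 gene that rose without FP heifer 3 or without any 1 LP heifer. None of 32 NOTCH pathway genes was called in limma with all arrays. At an unadjusted limma p under 0.05, 14 lay lower and 1 higher, where 7913 of all 26773 probesets passed in either direction. The least significant difference (LSD) contrasts of the study's own design also called 0 of the 32 genes. With the 6 ampulla arrays alone, or without LP heifer 3, 1 of them was called higher.

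Among the process lists, the clock genes had the largest share of lower members. Of 19 measured genes of the circadian clock 7 fell, against 3.64% of all genes, and 3 held. DBP, a transcription factor whose output follows the clock, had 8.82, 8.47 and 8.89 in the FP, against 10.05, 9.94 and 9.65 in the LP (log2 -1.15, SE 0.19, adjusted p = 0.00298). RORA, a receptor that drives the arm of the clock holding BMAL1, averaged 9.03 ± 0.06 (SD, n = 3) in FP heifers, against 9.99 ± 0.02 in LP heifers (log2 -0.96, SE 0.08, adjusted p = 8.02e-05), and its opponent NR1D2 had 10.32, 10.18 and 10.56 in the FP, against 11.11, 11.03 and 11.12 in the LP (log2 -0.73, SE 0.11, adjusted p = 0.00193). The repressors PER3 (-0.72), PER2 (-0.68), BHLHE41 (-0.65) and CRY2 (-0.60) were called with all arrays but did not hold. Leaving out FP heifer 1 left 3 called, and leaving out FP heifer 2, FP heifer 3, LP heifer 1 or LP heifer 2 left 4. Core activators were not called, with -0.10 for ARNTL, which encodes BMAL1 (adjusted p = 0.533), and 0.08 for CLOCK (adjusted p = 0.703). FP heifers were killed a fixed time after an evening injection and the hour for LP heifers is not given in the sources used here, so phase and time of day cannot be told apart.

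Of 12 steroid receptors and progesterone membrane components 3 fell (25%, beside 3.64% of all genes) and 1 rose. The lower count was 1 without FP heifer 1 or FP heifer 2. Of the 3 that fell, the mineralocorticoid receptor NR3C2 alone held. It had 7.10, 7.50 and 7.39 in the FP, against 8.60, 8.31 and 8.36 in the LP (log2 -1.09, SE 0.13, adjusted p = 0.000401). The progesterone receptor PGR was called higher at 0.89 (SE 0.24, adjusted p = 0.0309), with 11.04, 9.89 and 10.44 in the FP, against 9.51, 9.38 and 9.81 in the LP, but was called in 1 of the 6 fits without a heifer. ESR1 differed by -0.12 (adjusted p = 0.588). Of 24 genes known to respond to estradiol 11 had a difference above 0 (median -0.04, all genes -0.02). In this list 4 rose and 1 fell (16.7% and 4.17%, beside 5.5% and 3.64% of all genes). The 1 that fell, the cyclin CCND1, was not called once any 1 heifer was left out. The disulfide isomerase AGR2 had 12.82, 12.63 and 12.92 in the FP, against 10.69, 10.97 and 11.01 in the LP (log2 1.90, SE 0.13, adjusted p = 2.47e-05), and the estrogen receptor cofactor GREB1 rose by 1.36 (SE 0.13, adjusted p = 0.000147). AGR2 and GREB1 held, and 2 rose without FP heifer 3, LP heifer 1 or LP heifer 2. Of 21 genes known to respond to progesterone or glucocorticoid 4 fell (19%, beside 3.64% of all genes), with a median of -0.28.

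More regulators of cell death fell than rose. BCL2, which blocks apoptosis, had 9.12, 9.22 and 8.85 in the FP, against 10.09, 10.41 and 10.04 in the LP (log2 -1.11, SE 0.17, adjusted p = 0.0019), and BAX, which promotes it, had 8.35, 8.34 and 8.50 in the FP, against 7.64, 7.54 and 7.68 in the LP (log2 0.78, SE 0.09, adjusted p = 0.000295). The death receptor FAS fell by 0.87 (SE 0.12, adjusted p = 0.00115) and the death ligand TNFSF10 by 1.54 (SE 0.27, adjusted p = 0.00406). Of the 31 genes of this list, 4 fell with all arrays (12.9%, beside 3.64% of all genes). BAX alone rose (3.23%, beside 5.5% of all genes). The number that rose was 2 without FP heifer 3, without LP heifer 3 or with each array centred on its median.

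In the tight junction 5 of 33 genes fell and 2 held, CLDN1 with 12.16, 12.43 and 11.85 in the FP, against 13.22, 13.21 and 12.76 in the LP (log2 -0.92, SE 0.18, adjusted p = 0.00766), and the plaque protein CGN (-0.69, SE 0.11, adjusted p = 0.00298). The 5 that fell were 15.2% of the list, beside 3.64% of all genes. The lower count was 3 without FP heifer 1, FP heifer 2 or LP heifer 1, 2 without FP heifer 3 or LP heifer 2, and 3 with the 6 ampulla arrays alone. The gamma subunit of the epithelial sodium channel, SCNN1G, had 6.73, 6.90 and 6.11 in the FP, against 8.18, 8.15 and 7.76 in the LP (log2 -1.45, SE 0.22, adjusted p = 0.00177), the only lower gene among 63 sodium, potassium and calcium channels and their subunits. FXYD4, a subunit of the sodium pump, rose by 1.38 (SE 0.21, adjusted p = 0.00196). CAVIN3, a coat protein of caveolae, the small pits of the cell membrane, had 9.51, 10.06 and 9.92 in the FP, against 7.77, 7.74 and 7.53 in the LP (log2 2.15, SE 0.25, adjusted p = 0.000431), while CAV1, the protein those pits are built from, was called lower at -1.86 (SE 0.43, adjusted p = 0.0144), with 7.89, 8.35 and 7.59 in the FP, against 8.96, 10.58 and 9.86 in the LP. CAV1 was not called without FP heifer 1 or without LP heifer 3. TIMP1, which blocks metalloproteinases, rose by 1.28 (SE 0.18, adjusted p = 0.00137), and the integrin subunit ITGB6 fell by 0.84 (SE 0.13, adjusted p = 0.00189).

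Most immune genes were not called, and those that were called were mainly lower. The leukocyte markers given above were lower too, with 10 of 33 called for T and NK cells, 1 of which held, and 15 of 25 for macrophages and dendritic cells, 3 of which held. These marker counts were 3 and 7 without FP heifer 1, 2 and 9 without FP heifer 2, and 3 and 6 without FP heifer 3, the T and NK count was also 3 without LP heifer 1, and it was 3 with the 6 ampulla arrays alone. Of 39 interferon-stimulated genes 6 fell and 2 held (median -0.36), of 39 pattern recognition receptors 7 fell and 3 held (median -0.28), and of 35 complement genes 6 fell and 3 held (median -0.49), beside 3.64% of all genes that fell and 1.46% that fell and held. Leukocyte adhesion had 5 of 18 lower and VCAM1 alone held, and the count was 2 without FP heifer 1, 1 without FP heifer 2, 3 without FP heifer 3, 2 without LP heifer 1 and 3 with the 6 ampulla arrays alone. Chemokines, cytokines and their receptors lay nearer the share of all genes, with 5 of 84 lower (5.95%), and 3 without FP heifer 1 and 2 without FP heifer 2 or LP heifer 1. Antigen processing was mixed, with 3 of 32 lower, 7 without LP heifer 2, and 2 higher, CALR (1.35) and PDIA3 (0.74), which are also folding proteins of the ER. The complement receptor C3AR1 had 5.91, 6.27 and 5.86 in the FP, against 7.28, 7.42 and 7.67 in the LP (log2 -1.44, SE 0.25, adjusted p = 0.00347). TLR6, which senses bacterial lipopeptides, had 7.68, 8.04 and 8.57 in the FP, against 9.33, 8.98 and 9.56 in the LP (log2 -1.19, SE 0.23, adjusted p = 0.00617). IRF9, part of the interferon response factor, fell by 0.86 (SE 0.18, adjusted p = 0.00868), and CD59, which shields cells from complement, by 0.82 (SE 0.17, adjusted p = 0.00799). Leaving out 1 heifer changed the interferon count to 2 (FP heifer 1) or 3 (FP heifer 3, LP heifer 2), the pattern recognition count to 4 (FP heifer 3) and the complement count to 3 (FP heifer 1), and with the 6 ampulla arrays alone the complement count was 10. Among the lower members, 2 pattern recognition receptors and 3 complement genes are themselves leukocyte markers, and the part of leukocytes in the other decreases was not tested.

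Whether a change differed between the segments was tested as the difference in the ampulla minus that in the isthmus. It passed for 31 of 18010 genes (0.172%), and for 14 of the 1646 DEGs of the ampulla (0.851%). Of these 14 genes INSIG1, FDFT1, CYP51A1, ACSL3, FADS2 and LPCAT3 serve the synthesis of sterols, fatty acids and phospholipids. Each rose more in the ampulla, and its LP isthmus values all lay above its LP ampulla values. FADS2 had 12.25 to 12.53 in the LP isthmus, against 11.00 to 11.14 in the LP ampulla. FDFT1 had 11.75 to 11.92 in the LP isthmus, against 9.91 to 10.32 in the LP ampulla. LPCAT3 rose by 1.31 in the ampulla against a difference of 0.30 in the isthmus (adjusted p of the interaction 0.0154), ACSL3, which activates fatty acids, by 1.00 in the ampulla against a difference of 0.13 in the isthmus (0.0472), and FADS2 by 1.25 in the ampulla against -0.15 in the isthmus (0.0472). PPP1R1A, an inhibitor of protein phosphatase 1, rose by 2.73 in the ampulla against 0.24 in the isthmus (0.0264). RAB33A, a small GTPase, rose by 1.26 in the ampulla and fell by 0.71 in the isthmus (0.0438). With heifer as a fixed block INSIG1, FDFT1, FADS2 and RAB33A stayed under 0.05 (0.0109, 0.0208, 0.0208 and 0.0208) and the other 10 did not. The labels number the animals, but after removal of group means the ampulla and isthmus arrays with the same number correlated at -0.05, -0.17 and -0.10 in the FP and at 0.26, 0.22 and 0.37 in the LP. Among FP arrays with different numbers the correlations ran as high as 0.24, so values with the block, or without 1 heifer in both segments, rest on a pairing that the FP arrays did not show. Over all 26773 probesets 41 passed, and leaving out 1 heifer gave 4 without FP heifer 1, 0 without FP heifer 2 (where 1942 had an unadjusted p under 0.05), 2 without FP heifer 3, 141 without LP heifer 1, 4 without LP heifer 2 and 20 without LP heifer 3.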

How the data were processed

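The authors ran 1 array (Bovine Gene 1.0 ST) for each RNA sample, taken from epithelial cells of both oviduct segments in 6 heifers. The log2 values were deposited by the authors after RMA background correction, quantile normalization and median polish; the submitters' notes name GCOS 1.2 and Partek 6.4. They came without detection calls, so differences near the lower quartile of the ampulla arrays (5.68 to 5.79) are uncertain, and the number of arrays limits precision. Names came from the platform's annotation, with symbols updated and neighbours read from RefSeq (ARS-UCD2.0). Neighbours were ordered by gene start alone, and gene ends and sequences were not used. Probesets with several symbols (688) or none (7628) were tested but not named. A gene with several probesets (401 genes) was read on the one with the highest mean.

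A model with 1 mean for each of 4 groups was fitted to all 12 arrays in limma 3.58.1 (R 4.3.3; 8 residual degrees of freedom), and p-values were adjusted by Benjamini-Hochberg over 26773 probesets. The study's F-test with LSD contrasts, other fits, filters and centring, and leaving out each heifer were alternatives. The procedure was tested on simulated data. Plots were drawn with matplotlib 3.10.9. Genes considered for naming, not all of which are printed, came first from calls that held. These were the 12 largest each way, the 10 with the most extreme moderated t each way and up to 5 members per list and direction. Where none held, up to 2 members by p were taken. The 6 largest each way that did not hold and those with an interaction were added. The other genes given (other members of the lists, neighbours of CDC20B and MIR29C, OVGP1, the clock activators, cilium factors and receptors at their level) were chosen after their values were seen. The members and lists were chosen with earlier results of these data known. FP and LP heifers with the same number are different animals and were not paired; deviations of same-numbered ampulla arrays correlated at -0.10, 0.09 and -0.11.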

Additional observations from a re-analysis of the deposited data

Results flagged for a closer look

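Among the changes of the ampulla that were largest or had the most extreme moderated t, 2 genes differed from the isthmus by a test of the difference itself. LOC407163 had signals averaging 9.63 in FP heifers and 5.89 in LP heifers, a rise of 3.74 (SE 0.32, adjusted p = 7.53e-05). The isthmus differed by 0.19 (adjusted p = 0.76), and the interaction was 3.55 (adjusted p = 0.021, and 0.11 with heifer as a fixed block). The isthmus signals were 11.78, 11.64 and 12.43 in the FP, against 11.20, 11.74 and 12.35 in the LP. All of these lay above every ampulla value of the gene. INSIG1, which holds back sterol synthesis when sterols are plentiful, rose in the ampulla by 2.80 (SE 0.15, adjusted p = 5.62e-06), against 0.76 in the isthmus (adjusted p = 0.00653). The interaction was 2.04 (adjusted p = 0.0154, and 0.0109 with heifer as a fixed block). INSIG1 had 11.24, 11.15 and 11.02 in the FP ampulla, against 8.08, 8.62 and 8.33 in the LP ampulla. With FP heifer 2 left out, no interaction passed over all probesets in limma (1942 had an unadjusted p under 0.05).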

How the results depend on the processing

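With all arrays 2094 probesets were called, 1190 higher and 904 lower. With the replicate number as a block in the 6 ampulla arrays, 733 were called, 510 higher and 223 lower, but the numbers pair different heifers. With no minimum fold 4414 were called (2357 higher, 2057 lower), and with a fold of at least 2, 679 (435 higher, 244 lower). Leaving out 1 heifer gave 1483 to 2149 in all, 913 to 1218 higher and 570 to 931 lower, with the lowest count each time without FP heifer 2. Interactions, 41 with all arrays and 59 with heifer as a random block, were 19 with heifer as a fixed block and 0 to 141 without 1 heifer, the extremes being without FP heifer 2 and LP heifer 1. The cause of these shifts was not tested. The remaining alternatives gave 1930 (the 6 ampulla arrays), 2107 (heifer as a random block), 1956 (F-test and LSD), 2142 (trend and robust), 2135 (probesets above the lower quartile) and 2094 (median centring, 1356 higher and 738 lower). Of 228 genes taken by the rule, no direction turned under any of these alternatives. Of them, 6 lost their call with the 6 ampulla arrays alone, 5 with the LSD contrasts and 6 to 10 without a single heifer. With the replicate number as a block, 81 lost their call. The rule took mainly genes whose call held, so few losses without a single heifer followed from that choice. Among all called genes, leaving out 1 heifer removed 103 to 261 of 990 increases and 129 to 266 of 656 decreases.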
